A study of Mus musculus with 8 samples.

Results

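The comparison described here is 2i medium against Std medium in mouse embryonic stem cells grown on gelatin. Its members were the 2 libraries titled gelatin with 2i and the 2 titled gelatin with Std, 4 of the 8 libraries of the series, and it was read across all genes. Gelatin is denatured collagen, a common coating for these cells. The other 4 libraries came from dishes coated with LN511 (laminin-511), 2 in each medium, and share 1 fit with the gelatin libraries. All 8 came from Bruce 4, a male embryonic stem cell line from C57BL/6J mice with no stated genetic change, held 2 weeks in its condition before RNA was taken, so every value describes 1 line. The labels do not give the composition of Std medium or name the inhibitors in 2i. The design text calls the libraries of a group biological replicates but does not say how they were grown, so the p-values measure only the spread between these samples. Below, the gelatin libraries are called Std 1, Std 2, 2i 1 and 2i 2.

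A 2i medium holds an inhibitor of the kinase MEK, which stops signalling through ERK, and an inhibitor of the kinase GSK3, which otherwise marks beta-catenin for breakdown. In embryonic stem cells this pair of inhibitors holds the naive state of the early epiblast, with low DNA methylation and little spontaneous differentiation. Beta-catenin works with TCF and LEF factors at Wnt target genes, while ERK signalling feeds growth factor responses, metabolism and cell adhesion.

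Expression is in FPKM, in which the fragments of a transcript are divided by its length and the depth of the library, summed over the RefSeq transcripts of a gene. A fold change is the difference between media on the log2(FPKM + 1) scale, which understates the change of low genes, with its standard error (SE). The words rose, fell and called are used at a limma adjusted p under 0.05 over all 10274 genes tested. The files hold no read counts. The commonest step between low values corresponds to 2240000 to 2690000 fragments per library, an estimate that can be too low because smaller steps also occurred, and 1 such step is 0.19 to 0.22 FPKM on a transcript of 2000 bases. Pearson correlations across genes were 0.959 between the Std libraries, 0.962 between the 2i libraries and 0.913 to 0.917 between media. These are bulk values, so fewer cells of a type and less RNA per cell cannot be told apart.

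The cells carried the markers of their label. Pou5f1, the central pluripotency factor, was at 1015 and 949 FPKM in Std and 1035 and 1083 FPKM in 2i and did not pass the test (adjusted p = 0.379). Of 11 embryonic stem cell markers with a transcript row, none was below 1 FPKM in every gelatin library. Their levels still differed between media, as 3 rose, Nanog and Zfp42 among them, and 3 fell, Utf1 and Tdgf1 among them. The median change of these markers was -0.31 on the log2 scale. They summed to 3047 and 2812 FPKM in Std and 2547 and 2750 FPKM in 2i. Markers of other cell types were low. Of 14 markers of primitive and extraembryonic endoderm, 11 were below 1 FPKM in every gelatin library, Gata6, Gata4 and Sox17 among them, Afp and Ttr were listed at 0, and the list summed to 14.4 and 17.3 FPKM in Std and 7.19 and 6.88 FPKM in 2i. Trophoblast markers summed to 20.3 and 27.2 FPKM in Std and 37.5 and 52.8 FPKM in 2i, with 6 of 14 below 1 FPKM throughout and Elf5 and Prl3d1 listed at 0. These sums include Tead4, at 2.86 and 4.89 FPKM in Std and 0 and 17.8 FPKM in 2i, which was not tested because of such a zero. The mesendoderm list summed to 2.27 and 1.61 FPKM in Std and 12.5 and 10.04 FPKM in 2i, with 7 of 10 below 1 FPKM and Mesp1, Lhx1 and Cer1 listed at 0. Neuroectoderm markers summed to 65.4 and 62.6 FPKM in Std and 41.1 and 43.2 FPKM in 2i, with 5 of 12 below 1 FPKM and Zic1 and Neurog2 listed at 0. Fibroblast markers summed to 6.22 and 6.37 FPKM in Std and 3.39 and 2.61 FPKM in 2i, with 10 of 13 below 1 FPKM and Col3a1, Postn, Lum, Twist2, Prrx1 and S100a4 listed at 0. The part of these marker levels in the results below was not tested.

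In all, 1583 of 10274 genes (15.4%) were called, 843 higher (8.21%) and 740 lower (7.20%) in 2i, and the median log2 fold change was 0.004. The change was above 1 or below -1 for 506 of the higher and 468 of the lower genes. The libraries of one medium lay wholly above those of the other for 59.2% of all genes tested, so such a gap alone says little about a gene. Sentences below that say the media did not overlap, or that both libraries of a medium were higher, describe values. They add no support to a call. The count was 648 without 2i 1, 688 without 2i 2, 811 without Std 1 and 767 without Std 2, and 469 genes (280 higher and 189 lower) were called in all 8 fits that each left out 1 library. A gene described below as called kept its call in all 8 of these fits unless the libraries that end it are given, with the limma adjusted p in brackets. Where another setting ended the call of such a gene, that setting is named beside it. The settings were a pseudocount of 0.1 in place of 1, no filter on low values, genes with doubtful zeros kept, and limma with no trend of the variance on the mean. Others were each gene's highest transcript in place of its sum, the deposited gene table, quantile or median scaling, the replicate number as a block, and a fit of only the 4 gelatin libraries. Of 267 named genes called on gelatin, only 49 could be refitted in the deposited gene table and 260 with the highest transcript. For the others, no mention of these settings means that no fit was made.

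Several of the largest changes were in genes that belong to no list. Ubd, the gene of a ubiquitin-like modifier, was at 1.14 and 0 FPKM in Std and 49.95 and 50.1 FPKM in 2i (log2 fold change 5.12, SE 0.63, limma adjusted p = 0.00366). Cmtm7, which encodes a membrane protein with a MARVEL domain, was at 5.58 and 3.55 FPKM in Std and 106 and 101 FPKM in 2i (log2 fold change 4.25, SE 0.26, limma adjusted p = 0.000236). Both libraries in 2i were high for these genes and both in Std were low. The T-box factor Tbx3 was at 1.84 and 1.64 FPKM in Std and 45.4 and 35.6 FPKM in 2i (log2 fold change 3.91), and the epithelial ETS factor Elf3 at 8.14 and 10.6 FPKM in Std and 118 and 109 FPKM in 2i (log2 fold change 3.48). Ptges, which makes prostaglandin E2, was at 0.44 and 1.005 FPKM in Std and 16.9 and 19.02 FPKM in 2i (log2 fold change 3.48, SE 0.23, limma adjusted p = 0.000370). Kit, the receptor of stem cell factor, was at 3.79 and 4.28 FPKM in Std and 43.9 and 45.2 FPKM in 2i (log2 fold change 3.18, SE 0.30, limma adjusted p = 0.00133). None of these genes had overlapping groups, which was part of the rule that chose them. The transcribed pseudogene 2210409E12Rik was at 6.46 and 13.6 FPKM in Std and 259 and 228 FPKM in 2i, and a transcript with near copies can share reads with them.

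Crmp1, a cytoskeletal regulator best known in neurons, was at 27.5 and 28.5 FPKM in Std and 1.54 and 1.004 FPKM in 2i (log2 fold change -3.69, SE 0.21, limma adjusted p = 0.000179). Emb, the gene of the adhesion protein embigin, was at 82.3 and 83.3 FPKM in Std and 7.76 and 11.8 FPKM in 2i (log2 fold change -2.98, SE 0.23, limma adjusted p = 0.000565). Tcf15, a basic helix-loop-helix factor, was at 33.7 and 29.1 FPKM in Std and 2.85 and 2.92 FPKM in 2i (log2 fold change -3.06), and Vrtn at 12.3 and 7.58 FPKM in Std and 0.26 and 0.25 FPKM in 2i (log2 fold change -3.09). All 4 were high in both Std libraries and low in both 2i libraries, and lack of overlap was again part of the rule.

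**Figure D1:**
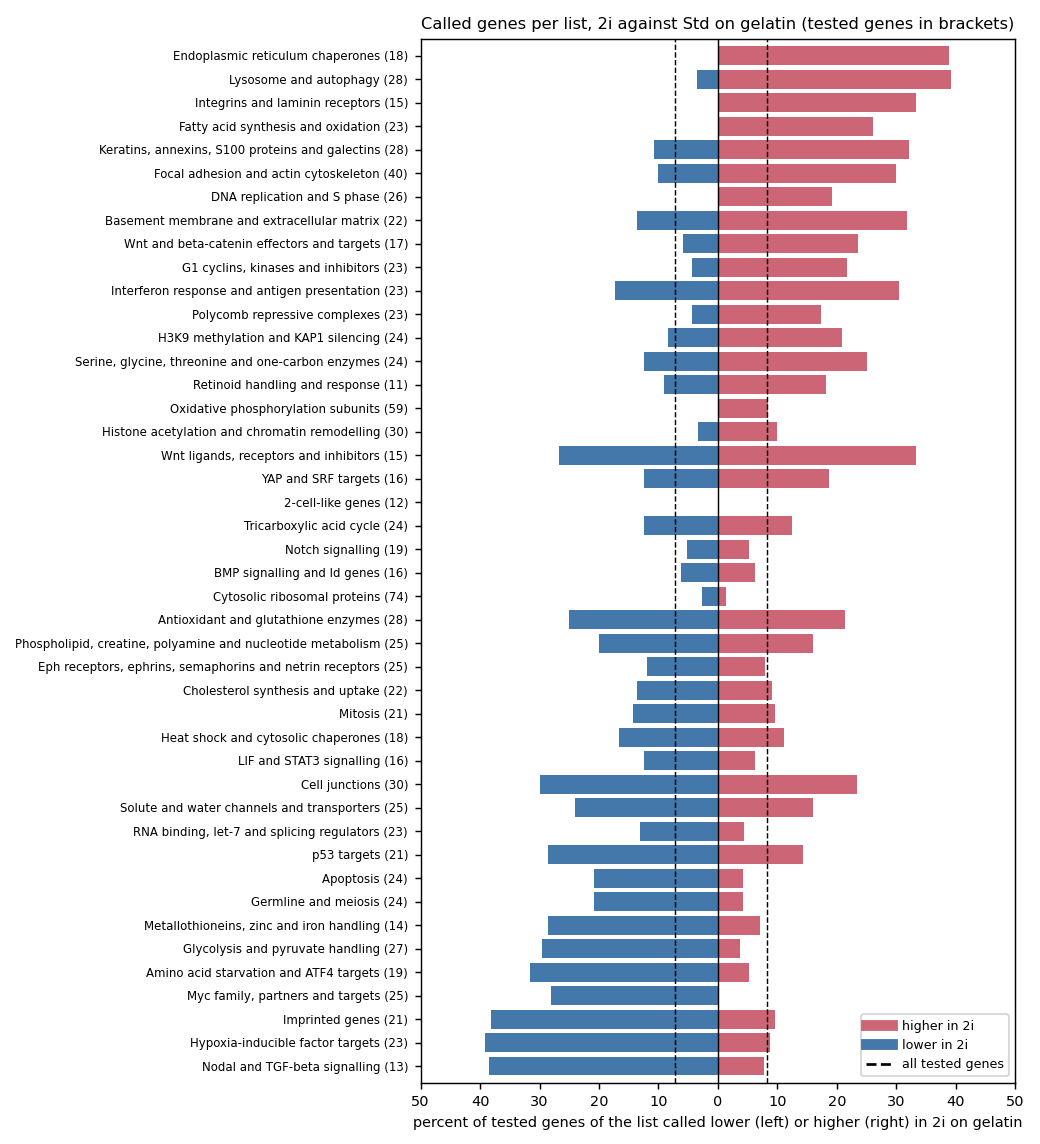
Share of the tested genes of each of 44 lists that were called lower (bars to the left) or higher (bars to the right) in 2i on gelatin, with the number tested in brackets and dashed lines at the shares of all tested genes (7.20% lower and 8.21% higher). Lysosome and autophagy genes (11 higher and 1 lower of 28) stand near the top, and targets of the hypoxia-inducible factors (2 higher and 9 lower of 23) near the bottom.

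The 44 pathway lists held 1318 genes, of which 1040 were tested, 76 were set aside for doubtful zeros, 138 were too low and 64 had no transcript row. Members that passed the filter only through the medium in which they were high had to differ, so the counts per list are descriptions. They are read against the shares over all tested genes, and a list is only as informative as the genes named from it. Some genes stand on several lists, among them Ddit4, Pdk1, Slc2a1, Odc1 and Srm, so the lists are not independent of each other.

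Wnt signalling genes changed in both directions, at the level of ligand handling, receptors and inhibitors. Of 15 tested, 5 rose and 4 fell (median log2 fold change -0.08). Porcn, the enzyme that attaches the lipid that Wnt ligands need, was at 4.12 and 4.53 FPKM in Std and 18.6 and 15.9 FPKM in 2i (log2 fold change 1.77, SE 0.21, limma adjusted p = 0.00318). Among the Frizzled receptors, Fzd10 was at 1.698 and 0.83 FPKM in Std and 17.8 and 16.6 FPKM in 2i (log2 fold change 3.03, SE 0.26, limma adjusted p = 0.00104), while Fzd7 was at 34.5 and 33.8 FPKM in Std and 9.56 and 9.47 FPKM in 2i (log2 fold change -1.74, SE 0.17, limma adjusted p = 0.00168). One receptor gene was thus high in 2i and the other in Std, with no overlap in either. Fzd2 was also lower, at 6.05 and 5.78 FPKM in Std and 0.97 and 1.32 FPKM in 2i (log2 fold change -1.70). The secreted inhibitors Sfrp1 and Sfrp2 went opposite ways. Sfrp1 was at 11.6 and 11.8 FPKM in Std and 85.01 and 85.03 FPKM in 2i (log2 fold change 2.76, SE 0.11, limma adjusted p = 6.40e-05), a level that both libraries of a medium shared closely. Sfrp2 was at 7.003 and 7.09 FPKM in Std and 0.62 and 0.97 FPKM in 2i, and its call was lost without 2i 1 (0.0811), 2i 2 (0.0612), Std 1 (0.0714) or Std 2 (0.0734). Wnt8a was at 1.57 and 1.18 FPKM in Std and was listed at 0 in both 2i libraries, and its call was lost without 2i 1 (0.0877), 2i 2 (0.0888), Std 1 (0.0817) or Std 2 (0.0532), and with a pseudocount of 0.1 or with only the 4 gelatin libraries. The number of rises was 3 without 2i 1, 2i 2 or Std 1, and the number of falls was 2 without 2i 1, 2i 2, Std 1 or Std 2.

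Among 17 effectors and targets of beta-catenin, 4 rose and 1 fell (median log2 fold change 0.48). T, 1 of the 4 rises, was listed at 0 in every Std library on either coating. It passed the filter only through 2i and so had to differ. Sp5, a zinc finger factor that is a direct target of the pathway, was at 0.22 and 0 FPKM in Std and 10.7 and 7.54 FPKM in 2i (log2 fold change 3.18, SE 0.29, limma adjusted p = 0.00123). The homeobox gene Cdx1, another target, had a log2 fold change of 4.86 (SE 0.29). Lef1, a DNA-binding partner of beta-catenin, went the other way, at 10.1 and 9.68 FPKM in Std and 1.14 and 1.15 FPKM in 2i (log2 fold change -2.34, SE 0.35, limma adjusted p = 0.00756). For these 3 genes the media did not overlap. Ctnnb1, the beta-catenin gene itself, was at 233 and 243 FPKM in Std and 209 and 208 FPKM in 2i and did not pass (adjusted p = 0.0921), and Gsk3a was at 40.00 and 41.8 FPKM in Std and 46.96 and 38.2 FPKM in 2i (adjusted p = 0.839). The count of rises was 2 without 2i 1, 2i 2, Std 1 or Std 2. With T, listed at 0 in both Std libraries and at 1.61 and 1.13 FPKM in 2i, the call was lost without 2i 1 (0.0906), 2i 2 (0.0544), Std 1 (0.0701) or Std 2 (0.0722), and in the deposited gene table or with only the 4 gelatin libraries.

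The upstream sequence of Sp5 is shown because Sp5 was the member of that list with TCF-type letters in the 250 bases before its first RefSeq start. The motifs searched were CTTTGAT and CTTTGTT, on both strands, in 27025 RefSeq promoters of GRCm38.p6, the assembly that mm10 names. CTTTGAT was in 3.23% of all of them and CTTTGTT in 4.99%, and in 2.21% and 3.09% of those of 8244 tested genes with an entry. Of 13 tested members of the list with an entry, Sp5 alone held either one. Capitals mark the matches, CTTTGTT on the reverse strand 222 bases before the start and CTTTGAT on the forward strand 104 bases before it, counted from the first base of the match. The stretch is chr2:70474673-70474922 on the plus strand. A match is a description of the letters and was not tied to binding here.
Sp5: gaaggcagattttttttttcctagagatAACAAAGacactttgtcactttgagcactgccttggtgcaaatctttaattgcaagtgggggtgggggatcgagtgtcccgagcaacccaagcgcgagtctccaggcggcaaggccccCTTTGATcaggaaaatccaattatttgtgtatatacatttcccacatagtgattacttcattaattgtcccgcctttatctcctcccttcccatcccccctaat

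Of 13 tested genes of Nodal and TGF-beta signalling, 5 fell and 1 rose (median log2 fold change -0.29). Lefty1, a secreted Nodal antagonist that the pathway itself induces, was at 84.2 and 77.4 FPKM in Std and 7.24 and 5.64 FPKM in 2i (log2 fold change -3.47, SE 0.35, limma adjusted p = 0.00173), a call that ended with a pseudocount of 0.1 (adjusted p = 0.0685). Tdgf1, the Nodal co-receptor, was at 843 and 878 FPKM in Std and 470 and 483 FPKM in 2i (log2 fold change -0.85, SE 0.07). Foxh1, the DNA-binding partner of the SMAD proteins, was at 44.7 and 45.9 FPKM in Std and 18.7 and 17.03 FPKM in 2i (log2 fold change -1.29, SE 0.14, limma adjusted p = 0.00245). The SMAD corepressor Skil was at 36.95 and 31.7 FPKM in Std and 5.22 and 6.39 FPKM in 2i (log2 fold change -2.38, SE 0.21, limma adjusted p = 0.00105). Each of these 4 was high in both Std libraries and low in both 2i libraries, from a secreted antagonist and a co-receptor to nuclear partners. Smad4, the shared SMAD protein, did not pass, at 13.7 and 11.1 FPKM in Std and 13.97 and 20.8 FPKM in 2i. The protease gene Pcsk6 was the member that rose, at 6.62 and 7.41 FPKM in Std and 23.7 and 18.3 FPKM in 2i, and its call was lost without 2i 1 (0.0758), Std 1 (0.0675) or Std 2 (0.054), and with the highest transcript. Nodal itself was set aside because it was listed at 0 in 2i 2 against 39.4 FPKM in 2i 1, and it was at 30.4 and 25.2 FPKM in Std.

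BMP signalling and Id genes had 1 rise and 1 fall among 16, 12.5% against 15.4% over all genes. Id3, an inhibitor of basic helix-loop-helix factors, was at 14.6 and 11.8 FPKM in Std and 35.9 and 42.2 FPKM in 2i (log2 fold change 1.50, SE 0.18, limma adjusted p = 0.00353). Its relative Id1 was at 33.9 and 29.6 FPKM in Std and 12.4 and 12.6 FPKM in 2i (log2 fold change -1.28), and that call was lost without 2i 1 (0.0511) or Std 1 (0.0519). Id genes are textbook targets of BMP and SMAD signalling, and these 2 were high in opposite media. In the list of LIF and STAT3 signalling, with 16 genes, the feedback inhibitor Socs2 fell with Pim2, from 32.2 and 31.4 FPKM in Std to 10.6 and 13.4 FPKM in 2i (log2 fold change -1.35, SE 0.19, limma adjusted p = 0.00640). Bcl3 was the member that rose, at 6.204 and 7.82 FPKM in Std and 25.4 and 24.4 FPKM in 2i, a call lost without 2i 1 (0.0703), 2i 2 (0.0659) or Std 1 (0.0704). Socs3 and Pim1 did not pass, at 37.2 and 43.9 FPKM in Std and 57.1 and 45.2 FPKM in 2i for Socs3 and 53.1 and 52.8 FPKM in Std and 35.9 and 57.3 FPKM in 2i for Pim1. Among 19 Notch genes, Hes6 fell and Hes1 rose, the latter at 7.26 and 1.71 FPKM in Std and 27.4 and 24.5 FPKM in 2i with its call lost without 2i 1 (0.089) or 2i 2 (0.0785), and with only the 4 gelatin libraries. Of 25 Eph, ephrin, semaphorin and netrin genes, 3 fell and 2 rose. The receptor gene Epha1 was at 9.39 and 10.01 FPKM in Std and 0.48 and 1.04 FPKM in 2i (log2 fold change -2.62, SE 0.26, limma adjusted p = 0.00168), Epha2 at 60.4 and 60.4 FPKM in Std and 23.3 and 27.5 FPKM in 2i (log2 fold change -1.22), and the ligand gene Ntn1 at 0.59 and 2.495 FPKM in Std and 20.8 and 13.4 FPKM in 2i (log2 fold change 2.91). The rise of Efna4 was lost without 2i 2 (0.104), Std 1 (0.0792) or Std 2 (0.0918), and with only the 4 gelatin libraries.

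**Figure D2:**
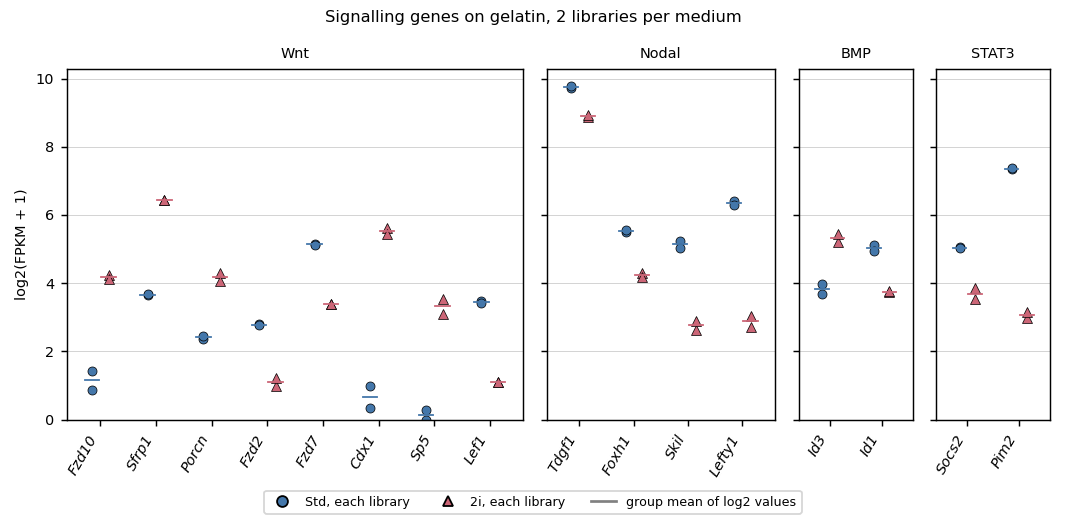
Level of signalling genes on the log2(FPKM + 1) scale in each gelatin library, circles for Std and triangles for 2i, with a short line at each group's mean. The media do not overlap for any gene shown, with Fzd10, Sfrp1, Porcn, Cdx1, Sp5 and Id3 higher in 2i and the others lower.

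The targets of the hypoxia-inducible factors, transcription factors that raise glucose uptake, glycolysis and mitochondrial clearance when oxygen is short, fell more often than they rose. Of 23 tested, 9 fell and 2 rose, with a median log2 fold change of -0.22. Ddit4, an inhibitor of mTORC1 signalling, was at 189 and 178 FPKM in Std and 36.2 and 42.4 FPKM in 2i (log2 fold change -2.20, SE 0.11, limma adjusted p = 0.000129). Bnip3, a receptor for the removal of mitochondria, was at 79.7 and 88.7 FPKM in Std and 20.9 and 22.7 FPKM in 2i (log2 fold change -1.90, SE 0.12, limma adjusted p = 0.000291). Pdk1, which keeps pyruvate out of the mitochondrion, was at 50.9 and 53.4 FPKM in Std and 9.54 and 11.98 FPKM in 2i (log2 fold change -2.18, SE 0.17, limma adjusted p = 0.000710). All 3 were high in both Std libraries and low in both 2i libraries. Egln3 and Slc2a1 are added because their promoters hold a motif given next, and were chosen after their values were seen. Egln3, a prolyl hydroxylase that marks the factors for breakdown, was at 20.6 and 20.9 FPKM in Std and 5.91 and 6.88 FPKM in 2i (log2 fold change -1.56). Slc2a1, the glucose transporter GLUT1, was at 203 and 186 FPKM in Std and 98.8 and 94.6 FPKM in 2i (log2 fold change -1.0). Kdm3a, a histone H3K9 demethylase, was high in 2i, at 10.9 and 6.83 FPKM in Std and 25.8 and 25.9 FPKM in 2i (log2 fold change 1.48, SE 0.22, limma adjusted p = 0.00676). Plod1 was the other rise, its call lost without 2i 1 (0.0887), 2i 2 (0.0931), Std 1 (0.0893) or Std 2 (0.0631), and with only the 4 gelatin libraries. The fall of Stc2 was lost without 2i 1 (0.0638), 2i 2 (0.0888), Std 1 (0.0791) or Std 2 (0.0808). Bnip3l did not pass, at 30.5 and 26.9 FPKM in Std and 27.9 and 29.3 FPKM in 2i.

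The sequences printed here are upstream of Bnip3 and Ddit4, which fell. Both hold each form of the hypoxia response core, ACGTG and GCGTG. The same holds for Slc2a1 and Fam162a, which also fell. It holds as well for Egln1, P4ha1, P4ha2, Ero1a, Selenbp1 and Rcor2, which were not called. In the 250 bases before the first RefSeq start, on either strand, ACGTG was in 16.6% of all 27025 promoters and 22.3% of those of tested genes, and GCGTG in 28.2% and 47.0%. ACGTG was in 6 of the 8 members that fell and have an entry, in 0 of 2 that rose and in 6 of 10 that were not called. GCGTG was in 6 of 8, 2 of 2 and 7 of 10 of them, so the letters did not separate members that fell from members that were not called. Capitals mark the matches, and in Bnip3 a match on each strand overlaps within CACGTG. The Bnip3 stretch is chr7:138909507-138909756 and the Ddit4 stretch chr10:59951771-59952020, both on the minus strand of GRCm38.p6.
Bnip3: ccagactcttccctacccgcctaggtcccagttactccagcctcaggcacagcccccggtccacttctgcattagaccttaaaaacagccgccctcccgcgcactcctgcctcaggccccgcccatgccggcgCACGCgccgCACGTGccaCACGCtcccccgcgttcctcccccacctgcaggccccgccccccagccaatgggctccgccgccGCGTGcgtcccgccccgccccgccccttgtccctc
Ddit4: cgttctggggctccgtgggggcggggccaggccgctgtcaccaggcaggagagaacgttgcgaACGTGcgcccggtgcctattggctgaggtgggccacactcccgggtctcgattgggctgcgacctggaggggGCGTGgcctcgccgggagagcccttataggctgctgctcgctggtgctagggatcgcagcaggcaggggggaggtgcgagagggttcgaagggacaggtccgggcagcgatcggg

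Glycolysis and pyruvate genes fell in 8 cases and rose in 1 among 27 tested (median log2 fold change -0.14). Slc16a3, which exports lactate, was at 83.5 and 78.5 FPKM in Std and 17.6 and 21.97 FPKM in 2i (log2 fold change -1.99, SE 0.17, limma adjusted p = 0.00109). Ldhb, a lactate dehydrogenase subunit, was at 134 and 139 FPKM in Std and 53.7 and 70.3 FPKM in 2i (log2 fold change -1.14, SE 0.16, limma adjusted p = 0.00635). Pfkl, the liver form of phosphofructokinase, was at 114 and 101 FPKM in Std and 47.8 and 48.1 FPKM in 2i (log2 fold change -1.14, SE 0.09, limma adjusted p = 0.000710). All 3 had both Std libraries above both 2i libraries. Gapdh and Aldoa did not pass, at 3297 and 3223 FPKM in Std and 2980 and 3042 FPKM in 2i for Gapdh and 859 and 962 FPKM in Std and 753 and 1034 FPKM in 2i for Aldoa. Hexokinase Hk1 was the member that rose, at 6.04 and 8.55 FPKM in Std and 26.8 and 24.6 FPKM in 2i, and its call was lost without 2i 1 (0.14), 2i 2 (0.12), Std 1 (0.151), Std 2 (0.0883), LN511 Std 1 (0.0633) or LN511 Std 2 (0.0634), and with no filter on low values or with the replicate block.

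Mitochondrial genes moved little as groups. Of 59 subunits of oxidative phosphorylation, 5 rose and none fell, 8.47% called, and the median log2 fold change was 0.11. Cox6b1, a subunit of cytochrome c oxidase, was at 337 and 338 FPKM in Std and 592 and 563 FPKM in 2i (log2 fold change 0.77, SE 0.06, limma adjusted p = 0.000475). Uqcrb, of complex III, was at 236 and 217 FPKM in Std and 402 and 394 FPKM in 2i (log2 fold change 0.81, SE 0.09, limma adjusted p = 0.00311). The count of rises was 2 without 2i 1 or Std 1 and 3 without 2i 2, and the count of falls was 1 without 2i 1, LN511 2i 1 or LN511 2i 2, and 2 under quantile normalization. In the tricarboxylic acid cycle list, 3 rose and 3 fell of 24. Idh1, the cytosolic isocitrate dehydrogenase that yields NADPH, was at 17.1 and 21.5 FPKM in Std and 56.2 and 54.7 FPKM in 2i (log2 fold change 1.48, SE 0.13, limma adjusted p = 0.00120). Me1, the cytosolic malic enzyme, was at 9.82 and 9.45 FPKM in Std and 23.03 and 21.7 FPKM in 2i (log2 fold change 1.14, SE 0.15, limma adjusted p = 0.00423). Both enzymes work in the cytosol, and both were higher in each 2i library than in each Std library. Mdh2, an enzyme of the cycle inside the mitochondrion, did not pass, at 251 and 251 FPKM in Std and 241 and 236 FPKM in 2i. The falls of the list were 0 without 2i 1 or Std 1 and 1 without 2i 2 or Std 2.

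Fatty acid genes rose in 6 of 23 cases and none fell (median log2 fold change 0.27), with 4 of the rises called in all 8 fits. Cpt1a, the gate of fatty acid entry into mitochondria, was at 4.75 and 5.39 FPKM in Std and 36.5 and 35.02 FPKM in 2i (log2 fold change 2.60, SE 0.31, limma adjusted p = 0.00334). Fabp3, a fatty acid binding protein, was at 69.4 and 63.6 FPKM in Std and 197 and 203 FPKM in 2i (log2 fold change 1.58, SE 0.13, limma adjusted p = 0.000710). The stearoyl-CoA desaturase genes Scd1 and Scd2 were at 15.7 and 15.5 FPKM in Std and 42.3 and 47.6 FPKM in 2i for Scd1 (log2 fold change 1.47) and 73.9 and 76.1 FPKM in Std and 145 and 150 FPKM in 2i for Scd2 (log2 fold change 0.96). These 4 genes were higher in each 2i library than in each Std library. Acly, which supplies the acetyl-CoA for synthesis, did not pass, at 115 and 106 FPKM in Std and 126 and 131 FPKM in 2i. The number of falls was 1 without Std 1. Cholesterol genes had 2 rise and 3 fall of 22, 22.7% called against 15.4% of all genes. The sterol isomerase Ebp was at 8.33 and 5.66 FPKM in Std and 31.7 and 24.1 FPKM in 2i (log2 fold change 1.86) and Acat2, which makes acetoacetyl-CoA, at 30.3 and 29.2 FPKM in Std and 75.8 and 87.8 FPKM in 2i (log2 fold change 1.43). The number of falls among cholesterol genes was 0 without 2i 2, Std 1 or Std 2 and 1 without 2i 1.

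Of 24 tested genes of serine, glycine, threonine and one-carbon metabolism, 6 rose and 3 fell (median log2 fold change 0.05). Tdh, threonine dehydrogenase (chromosome 14, 63492347 to 63509092 in mm10), was at 58.8 and 58.4 FPKM in Std and 353 and 318 FPKM in 2i (log2 fold change 2.49, SE 0.08, limma adjusted p = 2.79e-05). Gcat, the next enzyme of that path, was at 17.2 and 15.8 FPKM in Std and 43.1 and 36.6 FPKM in 2i (log2 fold change 1.22, SE 0.15, limma adjusted p = 0.00397). In the glycine cleavage system, Amt was at 18.1 and 16.4 FPKM in Std and 51.6 and 51.7 FPKM in 2i (log2 fold change 1.53, SE 0.15, limma adjusted p = 0.00178) whereas Gldc was at 92.04 and 100 FPKM in Std and 21.3 and 18.8 FPKM in 2i (log2 fold change -2.21, SE 0.13, limma adjusted p = 0.000210). One subunit gene of the system was thus high in 2i and the other in Std. Phgdh, the first enzyme of serine synthesis, was at 187 and 174 FPKM in Std and 86.7 and 90.9 FPKM in 2i (log2 fold change -1.01, SE 0.09, limma adjusted p = 0.00101). Psat1 and Mthfd1 did not pass, at 207 and 226 FPKM in Std and 192 and 194 FPKM in 2i for Psat1 and 145 and 126 FPKM in Std and 140 and 141 FPKM in 2i for Mthfd1.

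Targets of ATF4, the factor of the amino acid starvation response, fell in 6 cases and rose in 1 of 19 (median log2 fold change -0.11). The rise was that of Asns, asparagine synthetase, at 125 and 146 FPKM in Std and 510 and 493 FPKM in 2i (log2 fold change 1.88, SE 0.08, limma adjusted p = 8.91e-05). Slc38a2, a neutral amino acid transporter, was at 134 and 150 FPKM in Std and 37.1 and 32.7 FPKM in 2i (log2 fold change -2.0, SE 0.22, limma adjusted p = 0.00240). Slc7a3, a cationic one, was at 125 and 129 FPKM in Std and 58.03 and 56.5 FPKM in 2i (log2 fold change -1.13, SE 0.11, limma adjusted p = 0.00133). Asns and the transporters are textbook targets of the same factor and were high in opposite media. The number of falls was 2 without Std 1 and 3 without 2i 1, 2i 2 or Std 2, and the number of rises was 2 without Std 1 or Std 2.

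Creatine, polyamine and nucleotide genes were split. Among 25, 4 rose and 5 fell. Slc6a8, the creatine transporter, was at 14.8 and 12.1 FPKM in Std and 52.9 and 52.6 FPKM in 2i (log2 fold change 1.90, SE 0.13, limma adjusted p = 0.000418), beside the rise of the creatine kinase Ckb (chromosome 12, 111669355 to 111672338 in mm10, log2 fold change 4.28). Odc1, which makes putrescine, was at 720 and 728 FPKM in Std and 328 and 340 FPKM in 2i (log2 fold change -1.12, SE 0.06, limma adjusted p = 0.000152). Srm, which makes spermidine from it, was at 218 and 219 FPKM in Std and 112 and 113 FPKM in 2i (log2 fold change -0.95, SE 0.10, limma adjusted p = 0.00180). Sat1, which starts polyamine breakdown, was at 19 and 19.8 FPKM in Std and 43.1 and 35.5 FPKM in 2i (log2 fold change 0.98, SE 0.14, limma adjusted p = 0.00607). Genes of polyamine synthesis were thus lower and the catabolic gene higher in both 2i libraries. The number of falls was 3 without 2i 2, Std 1 or Std 2.

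Antioxidant and glutathione genes had 6 rises and 7 falls among 28, 46.4% called, with a median log2 fold change of -0.01. Gsto1, a glutathione transferase, was at 38.9 and 44.6 FPKM in Std and 209 and 197 FPKM in 2i (log2 fold change 2.26, SE 0.10, limma adjusted p = 8.91e-05). Sod2, the mitochondrial superoxide dismutase, was at 20.3 and 18.9 FPKM in Std and 64.7 and 61.01 FPKM in 2i (log2 fold change 1.63, SE 0.12, limma adjusted p = 0.000562). Gpx1 was at 271 and 252 FPKM in Std and 548 and 541 FPKM in 2i (log2 fold change 1.06). Txnip, which binds thioredoxin and responds to glucose, was at 90.8 and 99.1 FPKM in Std and 25.3 and 26.1 FPKM in 2i (log2 fold change -1.84, SE 0.10, limma adjusted p = 0.000179). The catalytic subunit gene of glutathione synthesis, Gclc, was at 36.2 and 29.3 FPKM in Std and 11.6 and 9.62 FPKM in 2i (log2 fold change -1.54, SE 0.18, limma adjusted p = 0.00317). Prdx6 was at 150 and 155 FPKM in Std and 58.97 and 53 FPKM in 2i (log2 fold change -1.43). Each of these genes had groups that did not overlap. The rises were 3 without 2i 1, 2i 2 or Std 2.

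In the list of metallothioneins, zinc and iron handling, 4 of 14 fell and 1 rose. Mt3, a metallothionein, was at 28.5 and 26.7 FPKM in Std and 3.49 and 2.18 FPKM in 2i (log2 fold change -2.92, SE 0.23, limma adjusted p = 0.000679). Fth1, the ferritin heavy chain, was at 715 and 768 FPKM in Std and 481 and 467 FPKM in 2i (log2 fold change -0.64, SE 0.08, limma adjusted p = 0.00331). The falls were 2 without 2i 1, 2i 2, Std 1 or Std 2, and the rise of the zinc transporter Slc39a1 was lost without 2i 1 (0.0635) or 2i 2 (0.0679). Mt1 and Ftl1 did not pass, at 676 and 736 FPKM in Std and 650 and 696 FPKM in 2i for Mt1 and 3278 and 3265 FPKM in Std and 2858 and 2967 FPKM in 2i for Ftl1. Among 25 channels and transporters, 4 rose and 6 fell. Aqp3, a water and glycerol channel, was at 2.65 and 1.99 FPKM in Std and 77.3 and 78.4 FPKM in 2i (log2 fold change 4.58, SE 0.17, limma adjusted p = 5.27e-05). The potassium channel gene Kcnk1 was at 9.59 and 8.996 FPKM in Std and 2.11 and 2.07 FPKM in 2i (log2 fold change -1.74, SE 0.20, limma adjusted p = 0.00289). These 2 genes kept their calls throughout, while the rises of the list were 1 without 2i 2, Std 1, LN511 Std 1 or LN511 Std 2 and 2 without 2i 1 or Std 2. Its falls were 1 without Std 1 or Std 2, 2 without 2i 1 or 2i 2 and 3 without LN511 Std 1 or LN511 Std 2.

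**Figure D3:**
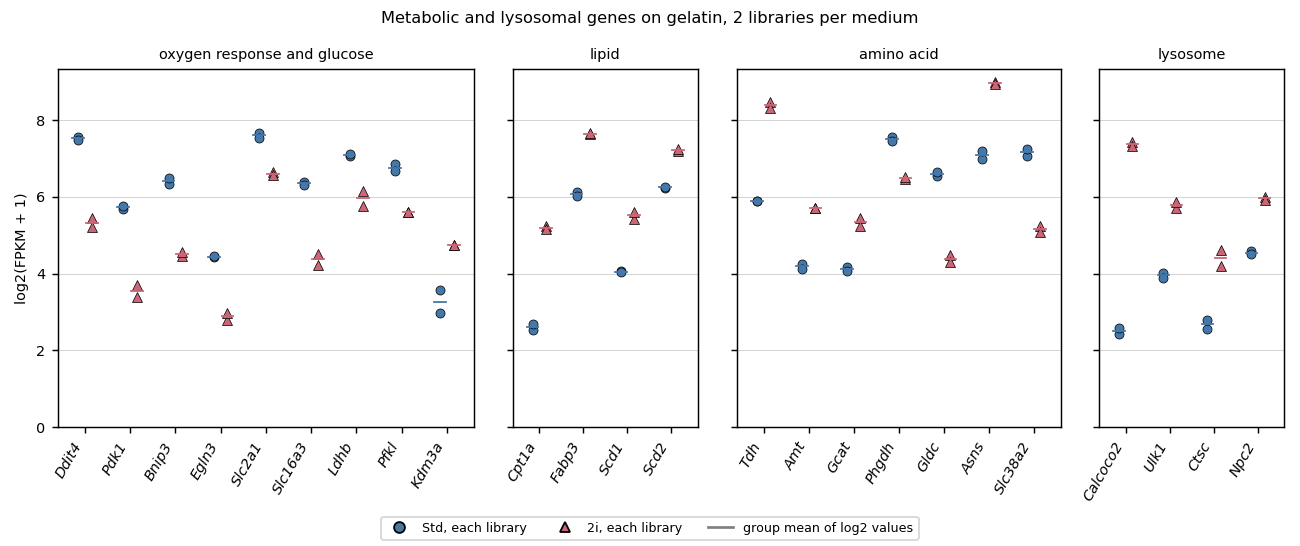
Level of genes of oxygen response and glucose use, lipid, amino acid and lysosomal function on the log2(FPKM + 1) scale in each gelatin library, circles for Std and triangles for 2i, with a short line at each group's mean. In the first group Kdm3a is higher in 2i and the others are lower, while the lipid and lysosomal genes shown are all higher in 2i.

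Genes of the lysosome and of autophagy, the route by which cells digest their own parts, rose more often than they fell. Of 28 tested, 11 rose and 1 fell, with a median log2 fold change of 0.58, and 8 of the rises were called in all 8 fits. Ulk1, the kinase that starts autophagy, was at 15.1 and 13.9 FPKM in Std and 51.6 and 56.9 FPKM in 2i (log2 fold change 1.84, SE 0.12, limma adjusted p = 0.000378). Ctsc, a lysosomal protease, was at 4.901 and 5.95 FPKM in Std and 17.5 and 23.4 FPKM in 2i (log2 fold change 1.73, SE 0.21, limma adjusted p = 0.00341). Npc2, which hands cholesterol on inside the lysosome, was at 22.97 and 21.9 FPKM in Std and 62.5 and 60.02 FPKM in 2i (log2 fold change 1.41, SE 0.12, limma adjusted p = 0.00111). In each of them both 2i libraries exceeded both Std libraries. The largest change was that of the autophagy receptor gene Calcoco2 (log2 fold change 4.87, SE 0.10). Ctsz, another protease gene, was the fall, lost without 2i 1 (0.0643), 2i 2 (0.126), Std 1 (0.122) or Std 2 (0.0503), and with no trend in limma or with only the 4 gelatin libraries. Ctsd and Ctsl did not pass, at 107 and 104 FPKM in Std and 127 and 122 FPKM in 2i for Ctsd and 71.1 and 74.99 FPKM in Std and 88.96 and 83.4 FPKM in 2i for Ctsl. Ctsa was set aside for a zero on LN511, and its gelatin values were 15.8 and 16.5 FPKM in Std and 39.7 and 37.1 FPKM in 2i. Also set aside were Mcoln1, at 5.16 and 11.7 FPKM in Std and 10.7 and 12.5 FPKM in 2i, and Tfe3. Tfe3 was at 12.4 and 9.97 FPKM in Std and 4.34 and 0 FPKM in 2i. Scarb2, a lysosomal membrane protein gene outside the list, was among the 20 largest falls, a call lost without Std 1.

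Chaperones of the endoplasmic reticulum rose in 7 of 18 cases and none fell, with small changes (median log2 fold change 0.25). Hspa5, the main HSP70 of that compartment, was at 267 and 255 FPKM in Std and 352 and 356 FPKM in 2i (log2 fold change 0.44, SE 0.06, limma adjusted p = 0.00640). The calcium-binding chaperone Calr was at 277 and 293 FPKM in Std and 427 and 402 FPKM in 2i (log2 fold change 0.54, SE 0.06, limma adjusted p = 0.00346). The call of Hspa5 ended with no trend in limma (adjusted p = 0.0768). Both genes were higher in each 2i library. With each library scaled to one median, 4 of these chaperones rose. Canx and Pdia4 did not pass, at 149 and 147 FPKM in Std and 136 and 145 FPKM in 2i for Canx and 90.2 and 85.9 FPKM in Std and 97.8 and 108 FPKM in 2i for Pdia4. The count of rises depended on single libraries, as it was 2 without 2i 1 or 2i 2, 3 without Std 1 or Std 2 and 4 without LN511 Std 1 or LN511 Std 2. Among 18 heat shock and cytosolic chaperone genes, 2 rose and 3 fell. Hspb1, a small heat shock protein, was at 195 and 167 FPKM in Std and 482 and 499 FPKM in 2i (log2 fold change 1.43, SE 0.09, limma adjusted p = 0.000245). Hsp90ab1 did not pass, at 2632 and 2660 FPKM in Std and 2700 and 2657 FPKM in 2i. The rises among these chaperones were 1 without 2i 1, 2i 2, Std 2, LN511 Std 1 or LN511 Std 2, and the falls were 0 without 2i 1 and 1 without 2i 2, Std 1 or Std 2.

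The Myc family and its targets, which drive growth and ribosome production, held falls and no rise. Of 25 tested, 7 fell (median log2 fold change -0.34). Mycn was at 178 and 170 FPKM in Std and 36.1 and 34.9 FPKM in 2i (log2 fold change -2.26, SE 0.08, limma adjusted p = 4.29e-05). Myc was at 25.9 and 15.9 FPKM in Std and 4.89 and 2.93 FPKM in 2i (log2 fold change -2.15, SE 0.32, limma adjusted p = 0.00730). The call of Myc ended with its highest transcript in place of the sum (limma adjusted p = 0.0676). Both factors were lower in each 2i library, and Mycn was the more abundant of them in FPKM. Odc1 and Srm, the polyamine genes given above, are also on this list and among its falls. Npm1 and Fbl, nucleolar proteins in the same list, did not pass, at 3103 and 3139 FPKM in Std and 2650 and 2741 FPKM in 2i for Npm1 and 270 and 283 FPKM in Std and 258 and 222 FPKM in 2i for Fbl. The falls were 4 without 2i 1 or Std 2. Of 74 ribosomal protein genes, 1 rose and 2 fell, 4.05% called against 15.4% of all genes. The rise was Rps28, at 1040 and 1008 FPKM in Std and 2495 and 3362 FPKM in 2i (log2 fold change 1.50), a short gene of a family with many near-identical copies, so its value is uncertain. The falls of the list were 0 without Std 1, Std 2, LN511 Std 1 or LN511 Std 2, 1 without 2i 1 or 2i 2 and 6 without LN511 2i 1 or LN511 2i 2 and the rises 3 without LN511 2i 1 or LN511 2i 2.

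Cell cycle lists gave a mixed picture. Of 23 G1 cyclins, kinases and inhibitors, 5 rose and 1 fell. Ccnd3, cyclin D3, was at 51.2 and 41.7 FPKM in Std and 155 and 149 FPKM in 2i (log2 fold change 1.70, SE 0.12, limma adjusted p = 0.000447). Cdkn1a, the inhibitor p21, was at 32.4 and 37.4 FPKM in Std and 78.8 and 74.2 FPKM in 2i (log2 fold change 1.11, SE 0.11, limma adjusted p = 0.00142). Ccna2, cyclin A2, was at 35.2 and 37.5 FPKM in Std and 81.1 and 86.4 FPKM in 2i (log2 fold change 1.18, SE 0.10, limma adjusted p = 0.000938). Cyclins and an inhibitor of the cycle were thus higher in both 2i libraries. Cdk4, the partner of the D cyclins, did not pass, at 374 and 367 FPKM in Std and 382 and 370 FPKM in 2i. The fall of cyclin E1 (Ccne1) was lost without 2i 1 (0.145), 2i 2 (0.15), Std 1 (0.162), Std 2 (0.13), LN511 Std 1 (0.0753) or LN511 Std 2 (0.0752), and with a pseudocount of 0.1, with no filter on low values, with doubtful zeros kept or with no trend in limma. The rises were 3 without 2i 2 or Std 2. Among 26 replication genes, 5 rose and none fell, 19.2% called against 15.4% of all genes (median log2 fold change 0.14). Gins1, of the replicative helicase, was at 28.98 and 30.4 FPKM in Std and 50.3 and 65.4 FPKM in 2i (log2 fold change 0.93, SE 0.14, limma adjusted p = 0.00780). The DNA ligase Lig1 was at 104 and 102 FPKM in Std and 152 and 153 FPKM in 2i (log2 fold change 0.57, SE 0.07, limma adjusted p = 0.00468). These rises were 2 without 2i 2 and 3 without 2i 1 or Std 1. Mitosis genes had 2 rises and 3 falls of 21, none of them called in all 8 fits, and the rises were 0 without 2i 1 and 1 without 2i 2, Std 1 or Std 2 and the falls 1 without 2i 1, 2i 2, Std 1, Std 2, LN511 Std 1 or LN511 Std 2.

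Most calls in the lists of p53 targets and of cell death were falls. Among 21 p53 targets, the p53 gene Trp53 included, 6 fell and 3 rose, and among 24 apoptosis genes, 5 fell and 1 rose. The p53 target Cdkn1a (p21), given above with the cell cycle genes, was among those that rose. Ddit4, given above with the hypoxia targets, was among the p53 targets that fell. Pmaip1, the death activator Noxa, was at 64.1 and 67.5 FPKM in Std and 30.6 and 30.04 FPKM in 2i (log2 fold change -1.09, SE 0.16, limma adjusted p = 0.00655). The survival factor gene Mcl1, which Noxa antagonizes, was at 225 and 222 FPKM in Std and 107 and 120 FPKM in 2i (log2 fold change -0.97, SE 0.08, limma adjusted p = 0.00101). Both partners were lower in each 2i library than in each Std library. Trp53 was at 163 and 157 FPKM in Std and 210 and 218 FPKM in 2i (log2 fold change 0.41), a call lost without 2i 1 (0.0582), 2i 2 (0.0802), Std 1 (0.0532) or Std 2 (0.0748), and with no trend in limma. Bcl2l11, the death activator Bim, was at 8.61 and 8.15 FPKM in Std and 1.31 and 2.74 FPKM in 2i, a call lost without 2i 1 (0.0905), Std 1 (0.0928) or Std 2 (0.0833), and with a pseudocount of 0.1. The number of p53 targets that fell was 2 without 2i 2, Std 1 or Std 2 and 3 without 2i 1. The number that rose was 1 without 2i 1, 2i 2, Std 1 or Std 2. For apoptosis the falls were 2 without 2i 1 or Std 1 and 3 without Std 2, and the rise of Bad was lost without 2i 2 (0.0931) or Std 2 (0.0641), and with only the 4 gelatin libraries.

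Genes of the basement membrane and matrix rose more often than they fell. Of 22 basement membrane and matrix genes, 7 rose and 3 fell (median log2 fold change 0.28), with 6 of the rises called in all 8 fits. Nid1, which links laminin to collagen IV (chromosome 13, 13437602 to 13512275 in mm10), was at 9.75 and 8.93 FPKM in Std and 83.7 and 83.95 FPKM in 2i (log2 fold change 3.04, SE 0.14, limma adjusted p = 9.25e-05). Fn1, fibronectin, was at 90.8 and 95.6 FPKM in Std and 233 and 235 FPKM in 2i (log2 fold change 1.32, SE 0.14, limma adjusted p = 0.00203). The matrix protein gene Sparc was at 45.4 and 48.1 FPKM in Std and 115 and 105 FPKM in 2i (log2 fold change 1.22, SE 0.09, limma adjusted p = 0.000615). The laminin chain gene Lamb2 was at 2.28 and 1.45 FPKM in Std and 10.9 and 9.76 FPKM in 2i (log2 fold change 1.99, SE 0.28, limma adjusted p = 0.00631). All 4 had both 2i libraries above both Std libraries. Markers of endoderm, a source of such matrix in embryos, summed to 7.19 and 6.88 FPKM in 2i and 14.4 and 17.3 FPKM in Std. The highest of them was Col4a1, itself a collagen IV gene (mean 4.93 FPKM on gelatin). The part of these markers in the matrix changes was not tested. Col18a1, a basement membrane collagen, fell, at 108 and 107 FPKM in Std and 41.05 and 43.2 FPKM in 2i (log2 fold change -1.34, SE 0.08, limma adjusted p = 0.000254), as did Plod2, a collagen-modifying enzyme, at 18.2 and 20.8 FPKM in Std and 7.45 and 6.15 FPKM in 2i (log2 fold change -1.40). Lamb1 was at 28.3 and 34.6 FPKM in Std and 6.72 and 9.49 FPKM in 2i, its call lost without 2i 1 (0.148), 2i 2 (0.0915), Std 1 (0.105), Std 2 (0.142), LN511 2i 1 (0.0517) or LN511 2i 2 (0.0519), and with no filter on low values, with the replicate block or with no trend in limma. Lama5 and Serpinh1 did not pass, at 40.02 and 27.8 FPKM in Std and 42.2 and 41.5 FPKM in 2i for Lama5 and 48.4 and 47.5 FPKM in Std and 52.4 and 52.1 FPKM in 2i for Serpinh1.

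Among 15 integrins and laminin receptors, 5 rose and none fell. Bcam, a laminin receptor, was at 51.7 and 41.98 FPKM in Std and 141 and 141 FPKM in 2i (log2 fold change 1.58, SE 0.11, limma adjusted p = 0.000397). The heparan sulfate carrier Sdc2 was at 3.57 and 5.13 FPKM in Std and 16.98 and 15.7 FPKM in 2i (log2 fold change 1.71, SE 0.25, limma adjusted p = 0.00692). Itga5, a fibronectin receptor chain, was at 3.601 and 9.01 FPKM in Std and 32.4 and 29.6 FPKM in 2i, and its call was lost without 2i 1 (0.0773) or 2i 2 (0.0679). Dag1 and Sdc4 did not pass, at 31.4 and 45.7 FPKM in Std and 44.2 and 34.8 FPKM in 2i for Dag1 and 48.1 and 44.3 FPKM in Std and 42.96 and 36.5 FPKM in 2i for Sdc4. The rises were 2 without 2i 2 and 3 without 2i 1 or Std 2, and the falls were 1 without LN511 2i 1 or LN511 2i 2 or under quantile normalization or median scaling. Of 40 focal adhesion and actin genes, 12 rose and 4 fell (median log2 fold change 0.28). Cnn3, a calponin, was at 112 and 117 FPKM in Std and 281 and 279 FPKM in 2i (log2 fold change 1.29, SE 0.06, limma adjusted p = 0.000128). Tes, of focal adhesions, was at 6.44 and 6.63 FPKM in Std and 20.9 and 23.1 FPKM in 2i (log2 fold change 1.61, SE 0.21, limma adjusted p = 0.00428). Fhl1, a LIM protein, was at 5.58 and 4.96 FPKM in Std and 18.4 and 13.6 FPKM in 2i (log2 fold change 1.43, SE 0.20, limma adjusted p = 0.00611). These 3 were higher in each 2i library, and were the members of the list called in all 8 fits. The actin gene Actg1 did not pass, at 1330 and 1281 FPKM in Std and 1197 and 1163 FPKM in 2i, nor did profilin (Pfn1), at 761 and 712 FPKM in Std and 768 and 767 FPKM in 2i. The rises were 4 without 2i 2 or Std 2 and 5 without 2i 1, and the falls were 0 without 2i 1, 2i 2 or Std 2, 1 without Std 1 and 2 without LN511 Std 1 or LN511 Std 2.

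Cell junction genes exchanged members, with 7 higher and 9 lower among 30 (53.3% called, median log2 fold change -0.24). Jam2, a junctional adhesion molecule (chromosome 16, 84774123 to 84826380 in mm10), was at 1.54 and 2.44 FPKM in Std and 73.8 and 73.6 FPKM in 2i (log2 fold change 4.66, SE 0.25, limma adjusted p = 0.000146). Gjb5, a connexin of gap junctions, was at 1.65 and 1.81 FPKM in Std and 14.1 and 15 FPKM in 2i (log2 fold change 2.51, SE 0.30, limma adjusted p = 0.00345). The desmosomal cadherin Dsg2 was at 2.11 and 0.89 FPKM in Std and 13.4 and 13.5 FPKM in 2i (log2 fold change 2.57). These 3 were low in both Std libraries and high in both 2i libraries. The tight junction genes Cldn6 and Cldn7 were high in Std. Cldn6 was at 30.3 and 25.4 FPKM in Std and 2.43 and 0 FPKM in 2i (log2 fold change -3.95, SE 0.52, limma adjusted p = 0.00458). Cldn7 was at 27.9 and 20.3 FPKM in Std and 3.09 and 3.17 FPKM in 2i (log2 fold change -2.59, SE 0.25, limma adjusted p = 0.00148). Cdh3, P-cadherin, was at 10.1 and 9.52 FPKM in Std and 1.35 and 0.95 FPKM in 2i (log2 fold change -2.33, SE 0.28, limma adjusted p = 0.00343), while Cdh1, E-cadherin, did not pass, at 123 and 120 FPKM in Std and 109 and 93.4 FPKM in 2i.

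Of 28 keratin, annexin, S100 and galectin genes, 9 rose and 3 fell on gelatin (median log2 fold change 0.28). S100a1, a calcium-binding protein, was at 0.52 and 1.95 FPKM in Std and 14.2 and 13.2 FPKM in 2i (log2 fold change 2.79, SE 0.34, limma adjusted p = 0.00377). S100a11 was at 119 and 103 FPKM in Std and 235 and 261 FPKM in 2i (log2 fold change 1.16, SE 0.11, limma adjusted p = 0.00156). The annexin gene Anxa1 was at 1.04 and 1.47 FPKM in Std and 6.41 and 6.76 FPKM in 2i (log2 fold change 1.76, SE 0.26, limma adjusted p = 0.00665). Each was higher in both 2i libraries. Krt8 and Krt18 form the keratin pair of simple epithelia and moved apart on gelatin. Krt8 was at 4.77 and 5.19 FPKM in Std and 9.51 and 11.9 FPKM in 2i, its call lost without 2i 2 (0.055) or Std 1 (0.0508), and with only the 4 gelatin libraries. Krt18 was at 10.2 and 10.7 FPKM in Std and 4.52 and 3.66 FPKM in 2i, its call lost without 2i 1 (0.0833), 2i 2 (0.127), Std 1 (0.105), Std 2 (0.116), LN511 Std 1 (0.0604) or LN511 Std 2 (0.0606). The rise of Lgals3, at 1.05 and 1.16 FPKM in Std and 3.77 and 4.66 FPKM in 2i, was lost without 2i 1 (0.07), 2i 2 (0.106), Std 1 (0.0916) or Std 2 (0.079), and with the highest transcript or in the deposited gene table. The falls of the list were 0 without 2i 1, Std 1 or Std 2 and 1 without 2i 2, LN511 Std 1 or LN511 Std 2. Trophoblast markers, of an epithelium that carries these keratins, summed to 37.5 and 52.8 FPKM in 2i against 20.3 and 27.2 FPKM in Std. These sums include Tead4 with its doubtful zero. Elf5 was listed at 0, and the part of trophoblast markers in these changes was not tested.

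The medium effect on LN511, from 4 other libraries in the same fit, was set beside that on gelatin to see where gelatin differed. On LN511, 1905 genes (18.5%) were called, 882 higher (8.58%) and 1023 lower (9.96%). The difference between the 2 medium effects was called for 19 genes (0.185%), 14 with the larger value on gelatin (0.136%) and 5 with the smaller (0.0487%). Of these, 4 were in the list of keratins, annexins, S100 proteins and galectins, where 3 rose and 12 fell on LN511, with a median log2 fold change of -0.83. Krt8 on LN511 was at 87.3 and 93.4 FPKM in Std and 12.5 and 13.6 FPKM in 2i (log2 fold change -2.70, SE 0.16, limma adjusted p = 0.000206), against a log2 fold change of 0.96 (SE 0.16) on gelatin. The LN511 Std libraries held the high Krt8 values of the series. Sfn, stratifin, was at 25.3 and 22.1 FPKM in Std and 43.8 and 40.3 FPKM in 2i on gelatin, a call lost without 2i 1 (0.0504), and at 124 and 132 FPKM in Std and 41.2 and 47.2 FPKM in 2i on LN511 (log2 fold change -1.52, SE 0.12, limma adjusted p = 0.000546). Anxa1 was at 7.28 and 8.32 FPKM in Std and 1.65 and 2.36 FPKM in 2i on LN511 (log2 fold change -1.56, SE 0.26, limma adjusted p = 0.00887), so its medium effect was positive on gelatin and negative on LN511. Lgals1, a galectin, did not pass on gelatin, at 25.8 and 33.8 FPKM in Std and 32.4 and 31.3 FPKM in 2i, and fell on LN511, at 125 and 141 FPKM in Std and 34.9 and 31.4 FPKM in 2i. In the focal adhesion list, with 6 rises and 15 falls on LN511, the difference was called for Flna, filamin A, named here after its values were seen. Flna was at 55.4 and 57.1 FPKM in Std and 62.9 and 67.6 FPKM in 2i on gelatin and 101 and 99.1 FPKM in Std and 56.6 and 52.8 FPKM in 2i on LN511. The count of called differences was 2 without 2i 1, 2 without 2i 2, 0 without Std 1, 0 without Std 2, 6 without LN511 2i 1, 11 without LN511 2i 2, 0 without LN511 Std 1 and 2 without LN511 Std 2.

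**Figure D4:**
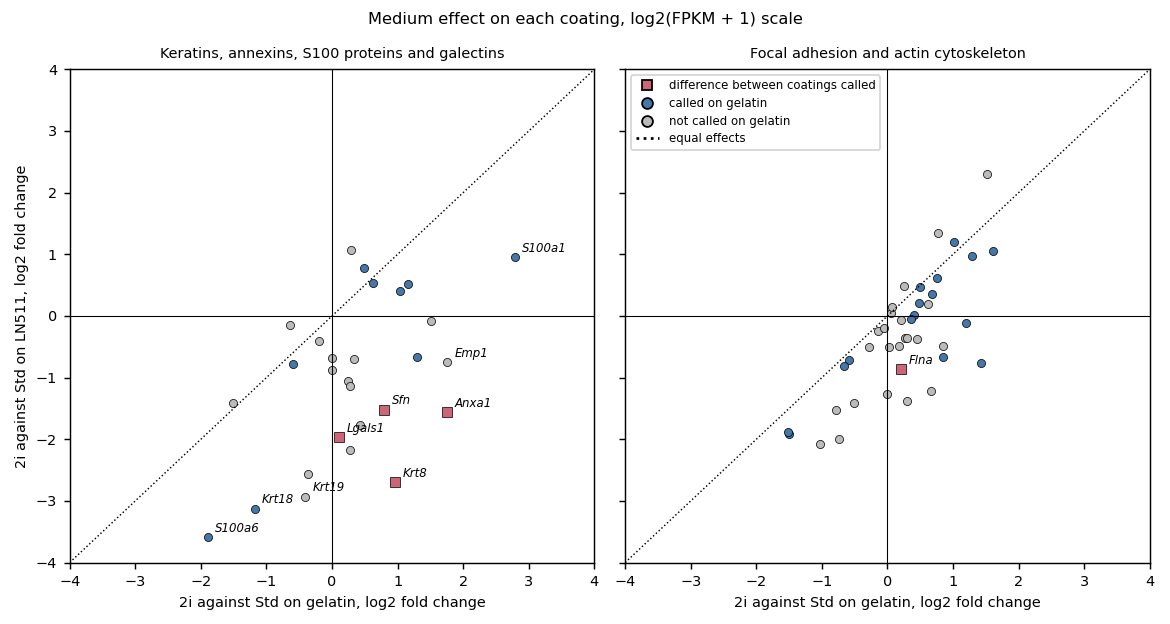
Log2 fold change of 2i against Std on gelatin (x axis) and on LN511 (y axis), on the log2(FPKM + 1) scale, for tested genes of the keratin, annexin, S100 and galectin list (left) and of the focal adhesion and actin list (right). Squares are genes whose difference between coatings was called (Krt8, Sfn, Anxa1 and Lgals1 on the left and Flna on the right), all of them below the dotted line of equal effects, and genes with an extreme value are named.

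Imprinted genes, which are read from one parental copy, fell in 8 of 21 cases and rose in 2 (median log2 fold change -0.78). Phlda2, a growth-restraining placental gene expressed from the maternal copy, was at 75.01 and 70.6 FPKM in Std and 6.42 and 4.02 FPKM in 2i (log2 fold change -3.60, SE 0.39, limma adjusted p = 0.00239), and Mest had a log2 fold change of -2.15. Both were lower in each 2i library. H19 was at 14.1 and 16.7 FPKM in Std and 2.398 and 0 FPKM in 2i, its call lost without Std 1 (0.0512) or Std 2 (0.0629), and with a pseudocount of 0.1. Plagl1 rose, at 0.49 and 0.27 FPKM in Std and 5.22 and 11.1 FPKM in 2i, its call lost without 2i 2 (0.0591), Std 1 (0.0502) or Std 2 (0.0634). The falls were 2 without Std 2 and 3 without 2i 1, 2i 2 or Std 1, and the rises were 0 without 2i 2, Std 1 or Std 2 and 1 without 2i 1, LN511 2i 1, LN511 2i 2, LN511 Std 1 or LN511 Std 2. Peg3 was set aside for a zero on LN511 and was at 71.1 and 78.03 FPKM in Std and 15.5 and 16.6 FPKM in 2i.

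Of 24 germline and meiosis genes, 5 fell and 1 rose, and none kept its call in all 8 fits. Syce1, of the synaptonemal complex, was at 14 and 9.76 FPKM in Std and 1.49 and 2.58 FPKM in 2i, its call lost without 2i 1 (0.0578) or Std 1 (0.0602). Mael, a piRNA pathway gene, was at 12.8 and 12.3 FPKM in Std and 2.63 and 1.04 FPKM in 2i, its call lost without Std 1 (0.0531) or Std 2 (0.0513). The falls of the list were 0 without Std 1, 1 without 2i 1 or Std 2 and 3 without 2i 2, LN511 Std 1 or LN511 Std 2. On gelatin, 0 of 12 tested genes of the 2-cell-like state were called by limma (median log2 fold change -0.25), and 1 had an unadjusted p under 0.05. The highest, Eif1a, was at 78.3 and 79.7 FPKM in Std and 91.8 and 99.8 FPKM in 2i. On LN511, 4 of the 12 rose and 0 fell (median 1.12), and the difference between coatings was called for 0 of them, with 5 at an unadjusted p under 0.05. Obox6, another member, was set aside for its zeros and is given by value. On gelatin it was listed at 0 in both Std libraries and at 3.95 and 4.796 FPKM in 2i. It thus reached 1 FPKM there only in 2i. Many genes of this state have nearly identical copies, among which reads may have been divided.

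Of 3 chromatin lists, those of Polycomb (21.7% called) and of H3K9 methylation (29.2%) lay above the 15.4% of all genes, and that of histone acetylation and remodelling (13.3%) lay below it. Among 23 Polycomb genes, 4 rose and 1 fell. Epop, a partner of Polycomb repressive complex 2 and of elongin, was at 48.1 and 43.3 FPKM in Std and 154 and 148 FPKM in 2i (log2 fold change 1.71, SE 0.12, limma adjusted p = 0.000443), high in both 2i libraries. The core subunit gene Suz12 was at 66.6 and 62.03 FPKM in Std and 93.5 and 92.5 FPKM in 2i, its call lost without 2i 1 (0.061), 2i 2 (0.0585) or Std 2 (0.0595), and with no trend in limma. Eed, the subunit that reads the mark, did not pass, at 81.3 and 76.2 FPKM in Std and 84.9 and 96.2 FPKM in 2i. The rises of this list were 1 without 2i 1 or 2i 2 and 2 without Std 1, Std 2, LN511 Std 1 or LN511 Std 2. Its fall, Phc1, was lost without 2i 1 (0.129), 2i 2 (0.161), Std 1 (0.154) or Std 2 (0.137), and with a pseudocount of 0.1, with no filter on low values, with doubtful zeros kept or with no trend in limma. Among 24 genes of H3K9 methylation and KAP1 silencing, 5 rose and 2 fell. Besides Kdm3a (given above), its relative Kdm3b was at 17.1 and 15.5 FPKM in Std and 41.5 and 36.2 FPKM in 2i (log2 fold change 1.20, SE 0.17, limma adjusted p = 0.00561). The rises were 3 without 2i 1, Std 1, Std 2, LN511 Std 1 or LN511 Std 2, and the falls were 0 without 2i 1, Std 1, Std 2, LN511 Std 1 or LN511 Std 2 and 1 without 2i 2. Trim28, the KAP1 gene, did not pass, at 563 and 560 FPKM in Std and 344 and 466 FPKM in 2i. Of 30 histone acetylation and remodelling genes, 3 rose and 1 fell, and the rises were 1 without 2i 2 or Std 1. Hdac1, a histone deacetylase, was at 212 and 191 FPKM in Std and 287 and 289 FPKM in 2i (log2 fold change 0.52, SE 0.07, limma adjusted p = 0.00568), a call that ended with no trend in limma (adjusted p = 0.0531). The fall of Smarcc1 was lost without 2i 2 (0.0625) or Std 1 (0.059).

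Genes of the interferon response and of antigen presentation rose in 7 and fell in 4 of 23 cases (median log2 fold change 0.35). Oas1a, an antiviral synthetase, was at 0.797 and 1.95 FPKM in Std and 10.7 and 15.7 FPKM in 2i (log2 fold change 2.60, SE 0.36, limma adjusted p = 0.00537). Bst2, tetherin, was at 118 and 126 FPKM in Std and 50.6 and 54.8 FPKM in 2i (log2 fold change -1.19, SE 0.13, limma adjusted p = 0.00224). The transcription factor gene Irf1 was at 30.3 and 31.1 FPKM in Std and 14.03 and 15.5 FPKM in 2i (log2 fold change -1.01, SE 0.15, limma adjusted p = 0.00685). Oas1a was thus high in 2i, and Bst2 and Irf1 in Std. Psmb8, of the immunoproteasome, was at 2.24 and 1.72 FPKM in Std and listed at 0 in both 2i libraries. It was not set aside because no group mean reached 5 FPKM, and its zeros may be failed estimates. The adaptor gene Sting1 was at 1.47 and 0.55 FPKM in Std and 5.03 and 5.57 FPKM in 2i, its call lost without 2i 1 (0.0638), 2i 2 (0.0769) or Std 2 (0.0629). The rises were 3 without 2i 1, Std 1 or Std 2 and 4 without 2i 2. Ifitm2 and Ifitm1 did not pass, at 211 and 219 FPKM in Std and 288 and 263 FPKM in 2i for Ifitm2 and 122 and 130 FPKM in Std and 102 and 96.2 FPKM in 2i for Ifitm1.

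Of 11 retinoid genes, 2 rose and 1 fell. Tgm2, a transglutaminase that retinoic acid induces, was at 0.74 and 0.19 FPKM in Std and 4.74 and 5.18 FPKM in 2i (log2 fold change 2.05, SE 0.28, limma adjusted p = 0.00561). The rise of Rxra was lost without 2i 1 (0.128), 2i 2 (0.11), Std 1 (0.125), Std 2 (0.0924), LN511 Std 1 (0.0554) or LN511 Std 2 (0.0552), and with no filter on low values, with doubtful zeros kept, with the highest transcript, with the replicate block or with only the 4 gelatin libraries. The fall of Crabp2 was lost without 2i 1 (0.109), 2i 2 (0.0612), Std 1 (0.0701) or Std 2 (0.107), and with a pseudocount of 0.1. Among 16 YAP and SRF targets, 3 rose and 2 fell. Vgll4, a TEAD cofactor, was at 2.68 and 2.33 FPKM in Std and listed at 0 in both 2i libraries. No group mean of Vgll4 reached 5 FPKM, so the rule for doubtful zeros did not apply, and these zeros may be failed estimates. The rises of that list were 0 without 2i 2 and 1 without 2i 1, Std 1 or Std 2, and the falls were 1 without 2i 1 or Std 1. Of 23 RNA-binding and splicing genes, 3 fell and 1 rose, 17.4% called against 15.4% of all genes. Zfp36, which speeds the decay of AU-rich mRNAs, was at 10.2 and 12.3 FPKM in Std and 3.21 and 2.12 FPKM in 2i (log2 fold change -1.75, SE 0.25, limma adjusted p = 0.00621), low in both 2i libraries. The falls were 1 without 2i 1 or Std 1, and the rise of Zfp36l1 was lost without 2i 1 (0.123), 2i 2 (0.0515), Std 1 (0.11) or Std 2 (0.0597), and with only the 4 gelatin libraries.

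List members set aside for doubtful zeros were not tested and are given by value. Ass1, argininosuccinate synthase, was listed at 0 in both Std libraries and was at 24.7 and 27.9 FPKM in 2i. Enpp2, autotaxin, was at 12.8 and 18.6 FPKM in Std and listed at 0 in both 2i libraries, and Slc7a7 was at 23.4 and 8.74 FPKM in Std and likewise at 0 in 2i. Hnrnpa1, at 183 and 209 FPKM in Std and 163 FPKM in 2i 1, was listed at 0 in 2i 2, and Mt2, at 1220 FPKM in Std 1, was listed at 0 in Std 2. A zero beside a replicate at such a level can be a failed estimate, so no direction was read from these genes.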

How the data were processed

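RNA-seq was done on 8 libraries of Bruce 4 cells, 2 per coating and medium. The authors deposited FPKM per transcript and per gene, and the submitters' processing notes name TopHat2 2.1.1, Cufflinks 2.1.1 and genome build mm10. For annotation, strand and library scaling, settings were not given in the sources used here. Of 54532 transcript rows, 32688 had RefSeq accessions, and 31782 of these matched a gene of the RefSeq annotation and were summed to 22959 genes, while 21844 assembled rows and 566 numbered copies were left out. The deposited gene table served as an alternative.

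A gene was kept if 2 or more libraries reached 1 FPKM (11240 genes). Doubtful zeros set a gene aside, meaning that one replicate was 0 while its partner reached 5 FPKM (836 genes), or a whole group was 0 while another group's mean reached 5 FPKM (130). The remaining 10274 were tested on log2(FPKM + 1) with limma 3.58.1 in R 4.3.3, with a trend of variance on level and 1 mean per group over all 8 libraries (4 residual and 2.76 prior degrees of freedom), and Benjamini-Hochberg adjustment over all genes. At an unadjusted p under 0.05, 3081 genes differed on gelatin. The script was checked on simulated data. Figures were drawn with matplotlib 3.10.9.

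Groups were taken from the sample titles. The comparison, its genes and the lists were chosen with earlier results of these data known. Named genes were the 20 largest rises and falls, up to 4 called genes per direction and the 2 most abundant uncalled genes of each list, and the 10 largest differences between coatings. Set-aside members are given by value, and Egln3, Slc2a1 and Flna were named after their values were seen. Alternatives covered the pseudocount, filters, zeros, scaling, gene values, spread model, replicate block and each library left out. Promoter sequences are RefSeq's, from GRCm38.p6, searched with exact letters. FPKM ratios between genes depend on the authors' transcript models, and reads from overlapping genes on opposite strands may not be separated.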

Additional observations from a re-analysis of the deposited data

Results flagged for a closer look

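For 12 named genes, 7 of them described above and 5 named here, the medium effect on gelatin differed from that on LN511 by a limma test of the difference itself, the gelatin log2 fold change minus the LN511 one on the log2(FPKM + 1) scale, with p-values adjusted over all genes tested. The difference was 3.66 for Krt8 (adjusted p = 0.0114), 3.31 for Anxa1 (0.0395), 2.32 for Sfn (0.0114), 2.08 for Lgals1 (0.0320) and 1.07 for Flna (0.0421), whose values in each library are given above. All but Lgals1 and Flna were called higher on gelatin, and all 5 fell on LN511.

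Cyb5r1, a cytochrome b5 reductase gene, was at 29.4 and 19.9 FPKM in Std and 99.9 and 82.3 FPKM in 2i on gelatin and at 69.9 and 72.6 FPKM in Std and 49.2 and 54.6 FPKM in 2i on LN511, a difference of 2.32 (limma adjusted p = 0.0421). Ccn1, a secreted matrix protein and YAP target, was at 11.3 and 10.4 FPKM in Std and 16.9 and 16.1 FPKM in 2i on gelatin and at 77.7 and 78.4 FPKM in Std and 43.01 and 44.03 FPKM in 2i on LN511, a difference of 1.39 (0.0415). Its gelatin call (limma adjusted p = 0.0185) was lost without 2i 1 (0.0834), 2i 2 (0.0659) or Std 2 (0.0733), and with only the 4 gelatin libraries. Slc25a4, the mitochondrial ADP and ATP carrier, was at 154 and 154 FPKM in Std and 148 and 157 FPKM in 2i on gelatin and at 316 and 313 FPKM in Std and 124 and 127 FPKM in 2i on LN511, a difference of 1.30 (0.0114). It did not pass on gelatin (adjusted p = 0.900). Ccna2 was at 94.9 and 83.2 FPKM in Std and 83.4 and 80.1 FPKM in 2i on LN511 (difference 1.30, 0.0395). Rps28 was at 2877 and 2500 FPKM in Std and 2199 and 1786 FPKM in 2i on LN511 (difference 1.94, 0.0421).

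The difference was negative for Hnrnph3, an RNA-binding protein gene, at 45.9 and 45.99 FPKM in Std and 22.1 and 17.5 FPKM in 2i on gelatin and 17.8 and 18.3 FPKM in Std and 25.4 and 25.1 FPKM in 2i on LN511 (difference -1.65, limma adjusted p = 0.0442). Mrgpra6, annotated as a transcribed pseudogene, was at 507 and 526 FPKM in Std and 405 and 378 FPKM in 2i on gelatin and 322 and 302 FPKM in Std and 476 and 456 FPKM in 2i on LN511 (difference -0.98, 0.0299). Its gelatin call was lost without 2i 2 (0.0705) or Std 2 (0.0696), and under quantile normalization or with no trend in limma. With single libraries left out, the difference for Krt8 was called in 4 of 8 fits, lost without Std 1 (0.065), Std 2 (0.077), LN511 Std 1 (0.116) or LN511 Std 2 (0.0597), and those for Sfn and Slc25a4 were called in 2, the fits without LN511 2i 1 or LN511 2i 2. The other 9 were called in 0 of the 8 fits. Every library therefore ends at least 9 of these calls.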

How the results depend on the processing

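On gelatin, 1583 genes were called, between 1221 and 1595 under the other settings that used the RefSeq transcript sums or the highest transcript and all replicates. The deposited gene table gave 295, over 2784 genes, because 47.3% of sums of at least 1 FPKM were 0 there. Leaving out 1 library gave 648 to 1516. The higher share of calls was 53.3%, 46.9% with libraries scaled to one median, while leaving out the first or the second gelatin Std library moved it to 64.2% or 63.1%. The difference between coatings was called for 19 genes, for 31 with no filter on low values, 53 with doubtful zeros kept, 65 in the deposited gene table and 0 to 11 with 1 library left out. With the replicate number as a block, 1221 genes were called on gelatin, 1180 of them shared with the fit without it in the same direction, and the difference was called for 1, Krt8. The numbers were not shown to pair the samples, since deviations of same-numbered gelatin libraries correlated at 0.014 with 2 pairs. Of 267 named genes called on gelatin, 164 to 253 kept the call with 1 library left out and 231 with the block. Reversed directions were those of Lgals3 by its highest transcript (log2 fold change -0.09) and, in the deposited gene table, of Dnmt3a (1.25) and Ddx4 (0.93). The cause of these shifts was not tested, apart from the zeros of the gene table. No list whose calls lay mostly in one direction turned with quantile normalization or median scaling. The depth behind a value is known only through the estimated step, and small differences in genes near 1 FPKM were not detectable at this depth.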
